A study of Mus musculus with 6 samples.

Results

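Matricellular proteins are secreted into the extracellular matrix, where they act less as structural fibers than as ligands and adaptors. They bind collagens, fibronectin, growth factors and cell-surface integrins and so set how firmly cells adhere and how they respond to their surroundings. Many of them are low in resting adult tissue and rise in development, wound repair and fibrosis. To describe this group in omental stroma, 10 genes were followed: periostin (*Postn*), *Tgfbi*, *Tnc*, *Tnxb*, *Sparc*, *Sparcl1*, *Thbs1*, *Thbs2*, *Spp1* and *Matn2*. They were taken by symbol from a fixed list, which was chosen with earlier results of these data known. All 10 were found, each on a single row, among 23352 gene symbols.

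RNA-seq had been performed on 6 stromal populations sorted from omenta of wild-type C57BL/6 mice, with 1 library for each, and mouse age and number were not given in the sources used here. The omentum is a sheet of fatty tissue that hangs from the stomach. P1 to P5 were CD45- and CD140a+, CD140a being the fibroblast receptor PDGFRα. P1, P2 and P3 were also CD105+, with high, intermediate and low activity of aldehyde dehydrogenase (ALDH), whereas P4 and P5 were CD105- with intermediate and low ALDH activity. P6 was CD45- and CD140a-low with ALDH activity. P6 was not divided by CD105, and the labels name no treatment for any group. Levels are FPKM as the authors deposited them, that is, fragments counted per kilobase of transcript and scaled to the mapped reads of the library, so that levels of different genes can be set side by side. With 1 library a population, the spread between mice is unknown and no p-value was computed. A gene was called different when its FPKM was at least 2 times apart and at least 1 FPKM in the higher population. Ratios are followed by a 95% interval for counting error alone, computed from the reads that the FPKM values imply (36.9 to 61.7 M per library).

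The fibroblast markers *Pdgfra*, *Col1a1*, *Col1a2*, *Dcn* and *Pdpn* were all above 1 FPKM in every library, with *Pdgfra* at 117 to 154 FPKM in P1 to P5 and 5.36 FPKM in P6. Markers of other cells were detected too. Over 7 mesothelial markers, the summed FPKM was 71.6 to 146 in P1 to P3, 716 and 876 in P5 and P4, and 2574 in P6, where P1 to P3 had 4 of the 7 at 1 FPKM or more. Over 6 pancreatic acinar markers it was lowest in P1 at 3.16, then 17.9 in P3, 115 in P5, 174 in P2, 927 in P4 and 1389.9 in P6. No marker of these 2 lists was at 0. An exact 0 was not always a measured absence in these files, since 9 values were 0 for genes that had at least 10 FPKM in each of the other five libraries, *Fn1* in P1 among them.

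Of the 10 genes, 8 reached 1 FPKM in at least 1 library and 2 did not. *Sparc*, which encodes a collagen-binding glycoprotein of basement membranes, dominated the group. It ranked between the 4th gene of P2 and the 16th gene of P5 by FPKM, and it made up 67.3% of the summed FPKM of the 10 genes in P3 and 85.1% in P6. Together, the 10 genes held 0.886% of all FPKM in P2 and 0.838% in P1, and this share was lower in P3 (0.718%), P4 (0.527%), P5 (0.417%) and P6 (0.408%). Without *Sparc*, their summed FPKM lay between 902 and 1078 in the CD105+ populations P1 to P3, was 504 in P4 and 348 in P5, and was lowest in P6 at 235. The CD105+ populations thus had the higher sums. In bulk RNA of sorted cells, fewer cells that express a gene and less RNA per cell cannot be told apart.

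**Figure D1:**
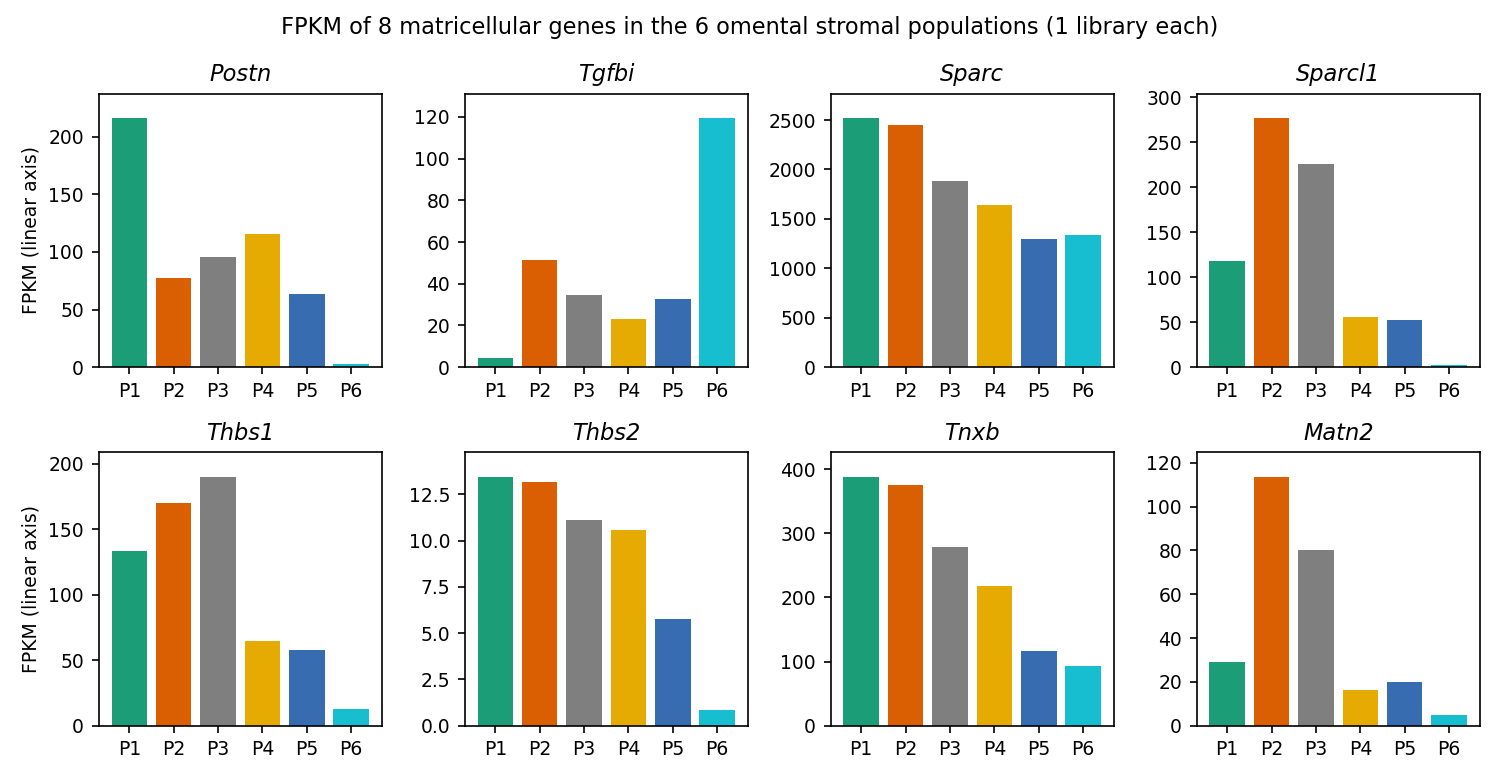
FPKM (linear axes that start at 0, with a separate scale for each gene) of the 8 genes that reached 1 FPKM, in P1 to P6, with 1 library a bar and no error bar. *Postn* is highest in P1 at 216 FPKM, *Tgfbi* is highest in P6 at 119 FPKM and lowest in P1 at 4.17 FPKM, and *Sparcl1*, *Thbs1* and *Matn2* are highest in P2 or P3.

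*Postn* and *Tgfbi* encode related proteins. Both are built from repeated fasciclin domains and bind integrins and collagen, and periostin also helps to position the enzymes that cross-link collagen. *Postn* lies on chromosome 3 (GRCm38, chr3:54361109-54391037, plus strand), and its reference transcript has 22 exons. *Tgfbi* lies at chr13:56609523-56639562 on the plus strand, and its transcript has 17 exons. Their start regions are shown because these paralogs had opposite extremes among the populations. The sequences are from RefSeq (GRCm38.p6), read 5′ to 3′, and cover the 250 bases before an annotated start, which are chr3:54360857-54361106 for *Postn* and chr13:56609336-56609585 for *Tgfbi*, both on the plus strand. The gene positions above are from another annotation, GENCODE. The *Tgfbi* stretch runs past the gene start given there, whereas the *Postn* stretch ends before it, so the 2 starts are not defined alike. Capitals mark the letters TATAAA, the core of a TATA box.

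Postn: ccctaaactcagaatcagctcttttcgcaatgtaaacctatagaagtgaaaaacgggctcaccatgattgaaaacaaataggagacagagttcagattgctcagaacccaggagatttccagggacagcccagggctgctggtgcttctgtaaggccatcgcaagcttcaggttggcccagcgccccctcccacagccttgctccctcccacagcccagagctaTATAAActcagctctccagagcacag

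Tgfbi: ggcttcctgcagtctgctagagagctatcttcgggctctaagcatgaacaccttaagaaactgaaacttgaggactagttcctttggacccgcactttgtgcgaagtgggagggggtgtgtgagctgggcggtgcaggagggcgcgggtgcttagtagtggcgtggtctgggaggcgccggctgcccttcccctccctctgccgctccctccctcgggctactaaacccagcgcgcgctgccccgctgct

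In *Postn*, TATAAA began 26 bases before the start, on the strand of the gene. A match on that strand between 35 and 20 bases before the start was held by 1.84% of the 32851 RefSeq promoters, and by no other of the 10 promoters found for 7 of the 10 genes. Only these exact letters were searched, so other forms of a TATA box, such as tatataag near a *Tnc* start, were not counted. Some of the 10 promoters, that of *Sparc* among them, lay inside the GENCODE gene. Another annotated *Postn* start, further upstream, had no TATAAA in its 250 bases. The *Tgfbi* region had no TATAAA on either strand, a GC content of 62.4% against 52.0% in *Postn*, and 15 CpG against 4 in *Postn*, where the median over all promoters was 52.4% GC and 6 CpG. On either strand and anywhere in the 250 bases, TATAAA was held by 12.4% of promoters, among them starts of *Tnc*, *Spp1* and *Thbs2*. The AP-1 site TGANTCA, also searched on both strands, was held by 6.75% of promoters and among these genes only by *Tnxb*. Neither the TEAD site GGAATG (12.6% of promoters) nor the DR5 retinoic acid response element (0.00913%) was found in them. No gene held more than 1 of these motifs, so matches do not overlap, and a match is a description of the letters alone.

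The levels of *Postn* fell in the order P1, P4, P3, P2, P5 and P6, with 216, 115, 95.5, 77.8, 63.2 and 2.32 FPKM. Each population was higher than the next by more than counting error, and the steps from P4 through P3 and P2 to P5 were small, between 1.21 and 1.23 times each. *Postn* in P1 was 1.87 times that in P4 (interval 1.84 to 1.91), just below the threshold of 2. That ratio was 2.1 after scaling by the median of ratios, and after division by *Gapdh* P1 was 2.37 times the next population, which was then P3. In P6 it was 27.3 times lower (24.1 to 31.0) than in P5, the lowest of the CD140a+ populations.

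*Tgfbi* had nearly the reverse order. It had 119 FPKM in P6, 51.2 in P2, 34.5 in P3, 32.6 in P5, 23.1 in P4 and only 4.17 in P1. The libraries at the ends of this order stood well apart from the middle, since P6 was 2.33 times P2 (2.26 to 2.40) and P4 was 5.53 times P1 (5.05 to 6.05). P3 and P5 lay close together, with a ratio of 1.06 (1.02 to 1.1). Among the 8 genes that reached 1 FPKM, only *Tgfbi* had at least 2 times the FPKM of the next highest population, a criterion met by 7.93% of the 12904 genes that reached 1 FPKM. After division by *Gapdh* its ratio of P6 to P2 was 1.88, and *Postn* was then the gene that met the criterion.

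The balance of the pair changed more than either gene. *Postn* FPKM was 51.8 times that of *Tgfbi* in P1, 5.0 times in P4, 2.76 times in P3, 1.94 times in P5 and 1.52 times in P2, and in P6 *Tgfbi* FPKM was 51.5 times that of *Postn*. The sum of both lay between 95.8 FPKM in P5 and 220.04 FPKM in P1. In P6, where *Tgfbi* was highest, the 7 mesothelial markers also had their highest sum. So had 6 macrophage markers, with 46.0 FPKM against 11.8 to 27.7 in P1 to P5. Of these, *Lyz2* had 26.6 FPKM in P6, against 22.0 in P2 and 23.0 in P3. *Csf1r* (11.6) and *Cd68* (6.50) were also highest in P6. *Ptprc* had 0.755 FPKM in P6 and 0.751 in P2, whereas *Itgam* was highest in P2 and *Emr1* in P3. The sums of 7 endothelial markers (111 against 1.72 to 18.8) and 5 adipocyte markers (355 against 10.8 to 57.5) were highest in P6 too. Of the endothelial markers, *Esam* had 62.04 and *Kdr* 46.9, with the other 5 below 1 FPKM. The adipocyte marker *Lep* was at 0 in every library but P3. The acinar sum was 3.16, 174, 17.9, 927, 115 and 1389.9 FPKM from P1 to P6. The part of these cells in the *Tgfbi* values was not tested.

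**Figure D2:**
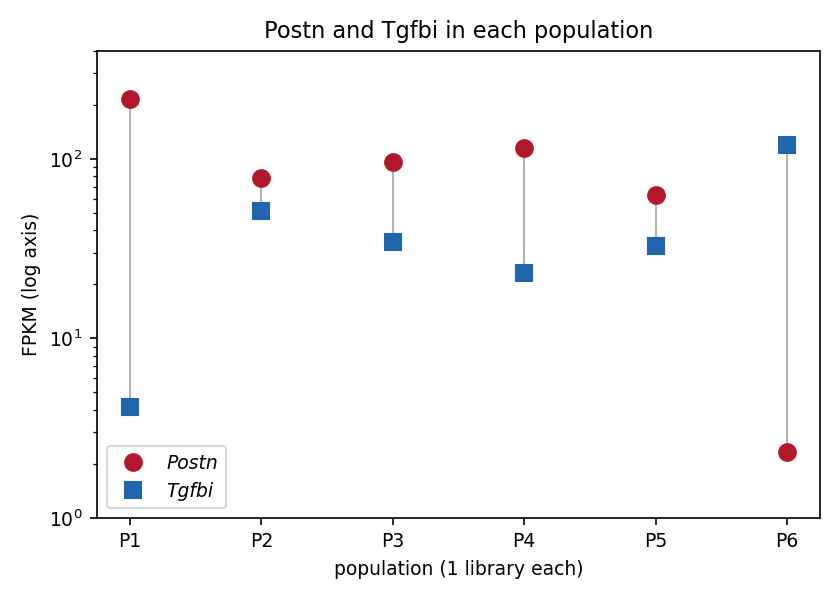
FPKM (log axis) of *Postn* (circles) and *Tgfbi* (squares) in each population, with 1 library a point and a grey line joining the pair. The 2 genes lie 1.52 to 5.0 times apart in P2 to P5 with *Postn* above, 51.8 times apart in P1 with *Postn* above, and 51.5 times apart in P6 with *Tgfbi* above.

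*Sparc* itself varied least. It lies at chr11:55394500-55423183 on the minus strand and its FPKM from P1 to P6 was 2516, 2452, 1884, 1640.1, 1298 and 1337. Its highest level among P1 to P5 was 1.94 times its lowest. The same measure was above 2 for the other 7 genes that reached 1 FPKM, with a median of 3.38 over the 8 genes, and over 12699 genes the median was 1.44 and 27.6% reached 2. P1 and P2 differed by a ratio of 1.03, and quantile normalization placed P2 above P1.

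*Sparcl1*, or hevin, is the relative of *Sparc* first known from high endothelial venules, and it modulates cell adhesion. It lies at chr5:104079111-104113733 on the minus strand. In falling order it had 277 FPKM in P2, 226 in P3, 118 in P1, 56.1 in P4, 52.8 in P5 and 2.05 in P6. All 3 CD105+ populations were above P4 and P5, as they were for *Sparc*, *Thbs1*, *Thbs2*, *Tnxb* and *Matn2*. The share of all genes with this order was not computed. P6 was 25.8 times (22.3 to 29.8) below P5. *Sparc* FPKM was 8.33 to 8.86 times that of *Sparcl1* in P3 and P2, 21.3 to 29.2 times in P1, P5 and P4, and 652 times in P6.

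The thrombospondins *Thbs1* and *Thbs2* encode trimeric glycoproteins that bind CD47 and CD36 and restrain angiogenesis, and the *Thbs1* product can also release active TGF-β. *Thbs1* (chr2:118111876-118127133, plus strand) was the more abundant in every library. The CD105+ populations P1, P2 and P3 had 133, 170.2 and 190.1 FPKM. P4 and P5, without CD105, had 65.1 and 57.9 FPKM. P6, which was not divided by CD105, had 13.0 FPKM. *Thbs1* is known to respond quickly to serum and stress, and 9 immediate-early genes, all above 1 FPKM in every library, had summed FPKM of 8749, 9097, 9149.6, 7996, 7867 and 9289 from P1 to P6. Whether the *Thbs1* values relate to these sums was not tested. *Thbs2* (chr17:14665500-14694235, minus strand) had 13.4, 13.2, 11.1, 10.6, 5.79 and 0.859 FPKM from P1 to P6. Its P1 and P2 levels could not be separated at this depth (ratio 1.02, interval 0.978 to 1.06). The FPKM of *Thbs1* was 6.15 times that of *Thbs2* in P4 and 17.1 times in P3, with the other four populations between.

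*Tnxb* encodes tenascin-X, a large glycoprotein that links collagen fibrils and whose loss makes tissues lax. It lies at chr17:34670535-34719815 on the plus strand and overlaps *Cyp21a2-ps* on the other strand. It was the second most abundant gene of the group in P1 to P5 and ranked from 178 in P2 to 666 in P6 among all genes. From P1 to P6, its FPKM was 388, 375, 278, 218, 116 and 92.5. It followed the order of *Thbs2*, with the step from P4 to P5 (1.88 times, 1.86 to 1.90) wider than the others.

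*Matn2* encodes matrilin-2, an adaptor that joins collagens, fibrillin and laminins into filaments. It lies at chr15:34306677-34436273 on the plus strand. It had 114 FPKM in P2 and 80.3 in P3, well above 29.1 in P1, 20.1 in P5, 16.2 in P4 and 4.65 in P6. P3 was 2.76 times P1 (2.67 to 2.84). The CD105+ population of highest ALDH activity therefore lay nearer to the CD105- populations than to P2 and P3 for this gene.

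*Tnc* and *Spp1* stayed below 1 FPKM in all libraries. *Tnc* (chr4:63959785-64047015, minus strand) encodes tenascin-C, which is typical of healing wounds, and it had 0.184 FPKM in P3, 0.141 in P2, 0.0732 in P1, 0.0445 in P5 and 0.0420 in P4, with 0 listed for P6. These values stand for about 77 reads in P3 and 17 in P4. *Spp1* (chr5:104435118-104441050, plus strand) encodes osteopontin, a cytokine and mineral-binding protein of macrophages and bone. It had 0.384 FPKM in P1, 0.182 in P4, 0.173 in P5, 0.0398 in P2, 0.0222 in P6 and 0.0135 in P3, which stand for about 27 reads in P1 and 1 read in P3. Neighbors in these orders mostly could not be separated by counting error, and neither gene entered a comparison. *Tnc*, *Tnxb*, *Sparcl1*, *Thbs1* and *Matn2* overlap an annotated gene on the other strand, and *Spp1* overlaps *Gm42793* on its own strand. Because strand-specific counting is not stated, reads of such neighbors cannot be told apart.

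The comparison of P1 with P2 asked how high ALDH activity relates to the group within CD105+ cells. Of the 8 genes tested, *Postn* was higher in P1 and *Tgfbi*, *Sparcl1* and *Matn2* were lower, where 1.05% of 11803 genes were called higher and 4.5% lower. *Postn* was 2.78 times higher (2.72 to 2.83). *Tgfbi* was 12.3 times lower (11.3 to 13.4), *Matn2* 3.90 times lower (3.78 to 4.02) and *Sparcl1* 2.34 times lower (2.30 to 2.39). *Thbs1* was 1.28 times lower. All 6 acinar markers were also called lower in P1, with sums of 3.16 and 174 FPKM, and so were *Acta2*, *Myh11* and *Des* among 6 mural cell markers, whose sums were 60.8 and 139 FPKM. None of these markers was at 0, and their part in the P1 to P2 ratios was not tested. *Sparc*, *Tnxb* and *Thbs2* had ratios of 1.02 to 1.03, and their direction changed with scaling, for *Thbs2* with a common sum of FPKM and for *Sparc* and *Tnxb* with quantile normalization.

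Between intermediate and low ALDH activity, none of the 8 genes was called. For P2 against P3, all ratios lay between 0.815 for *Postn* and 1.48 for *Tgfbi*, where 1.16% of 11980 genes were called higher and 2.75% lower. *Tnxb* was 1.35 times and *Sparc* 1.30 times higher in P2. For P4 against P5, without CD105, 4.17% of 12022 genes were called higher and 1.57% lower. Here *Tnxb* (1.88 times), *Thbs2* (1.83 times) and *Postn* (1.82 times) were higher in P4 and lay just under the threshold, whereas *Tgfbi* and *Matn2* were 1.42 and 1.23 times lower.

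By CD105, 4 of the 8 genes were called at each ALDH activity, the same number as for P1 against P2. At intermediate ALDH activity (P2 against P4), *Matn2* was 6.99 times (6.73 to 7.25), *Sparcl1* 4.93 times (4.82 to 5.05), *Thbs1* 2.62 times (2.58 to 2.66) and *Tgfbi* 2.22 times (2.13 to 2.31) higher with CD105, and none of the 8 genes was called lower. Over 12181 genes, 5.1% were called higher and 7.94% lower. At low ALDH activity (P3 against P5), *Sparcl1* was 4.28 times (4.18 to 4.39), *Matn2* 4.0 times (3.87 to 4.14), *Thbs1* 3.28 times (3.23 to 3.34) and *Tnxb* 2.40 times (2.38 to 2.42) higher, and again none was called lower, against 7.55% and 6.5% of 12152 genes. P2 also served in the comparisons with P1 and P3, so those share a library. The called genes *Matn2*, *Sparcl1* and *Thbs1* were common to P2 against P4 and P3 against P5, which share no library. The share of all genes called higher in both was not computed. The median log2 ratio of the 8 genes was 0.97 for P2 against P4 and 1.1 for P3 against P5, and over all genes tested it was -0.08 and -0.09. The genes were chosen with earlier results of these data known, so this is a description only. After division by *Gapdh*, 6 and 7 of the 8 genes were called higher and 0 lower, while the share of all called genes that were higher went from 39.1% to 67.6% for P2 against P4 and from 53.7% to 80.9% for P3 against P5. The 7 mesothelial markers moved the other way, with 94.5 and 146 FPKM in P2 and P3 against 876 and 716 in P4 and P5. The acinar sums were 174 and 17.9 FPKM against 927 and 115, and the mural sums 139 and 239 against 182 and 293. Most of the mural sums was *Des*, with 130 and 198 FPKM against 117 and 191, whereas *Myh11* and *Acta2* were called lower with CD105. The endothelial sums were lower with CD105 as well, at 2.05 and 3.46 FPKM against 18.8 and 11.7. The adipocyte sums were instead higher with CD105, at 45.0 and 42.7 FPKM against 22.3 and 10.8. So were the macrophage sums, at 26.8 and 27.7 FPKM against 15.1 and 11.8. The part of these markers in the ratios was not tested. As deposited, *Postn* was 1.48 times lower in P2 than in P4 but 1.51 times higher in P3 than in P5. Its log2 ratio for P2 against P4 was -0.0946 after division by *Gapdh*.

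**Figure D3:**
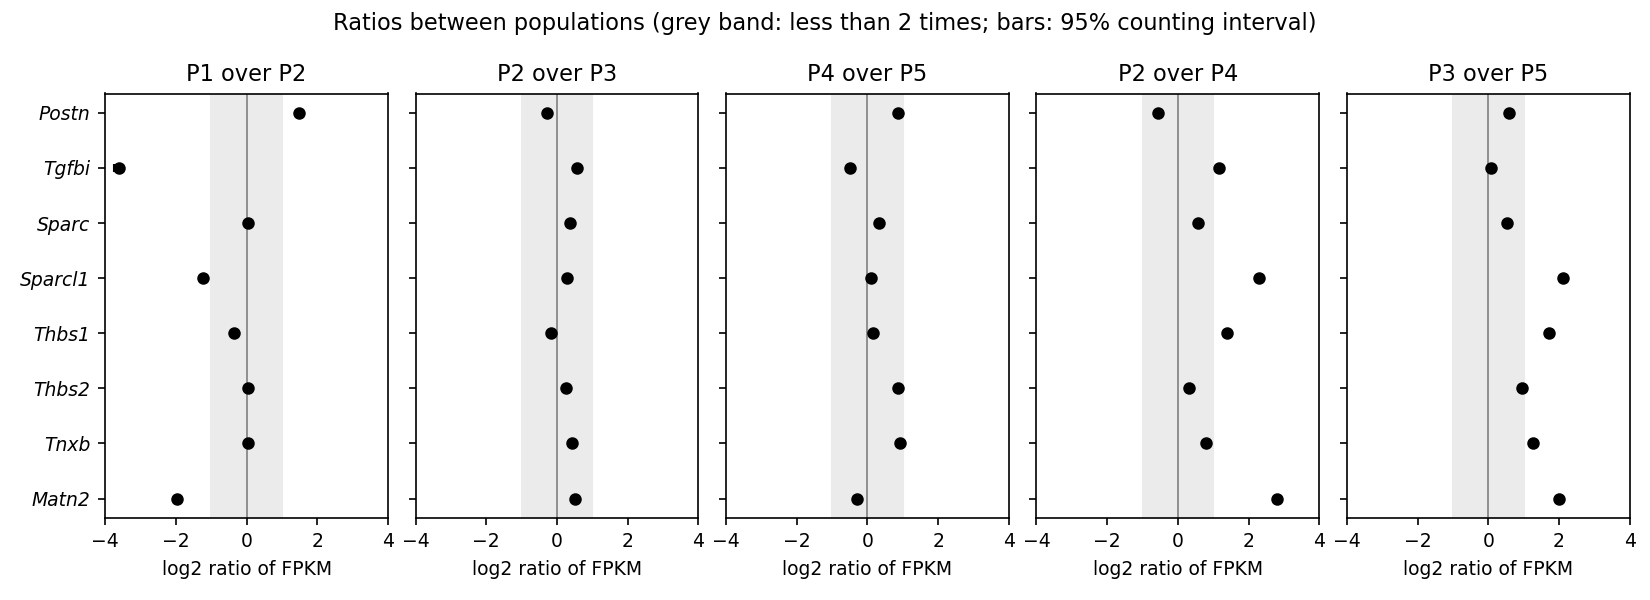
Log2 ratio of FPKM between populations for 8 genes, with the 95% interval for counting error, which is mostly narrower than the point. The grey band marks ratios under 2 times. No gene leaves the band for P2 over P3 or P4 over P5, and *Matn2*, *Sparcl1* and *Thbs1* lie to its right in both comparisons of CD105+ with CD105- cells.

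P6 was compared with the whole range of P1 to P5. *Postn*, *Sparcl1*, *Thbs2*, *Thbs1* and *Matn2* lay at least 2 times below the lowest of the CD140a+ populations, by 27.3, 25.8, 6.74, 4.44 and 3.49 times, where 3.43% of 12904 genes did. *Tgfbi* lay at least 2 times above the highest, by 2.33 times, where 6.45% of genes did. After division by *Gapdh*, 0 genes of the group were called higher in P6 and 5 lower. *Tnxb* was 1.25 times below P5, and *Sparc* in P6 was between P4 and P5. *Tgfbi* and *Tnxb* therefore made up 50.8% and 39.4% of the summed FPKM of the group without *Sparc* in P6, while *Postn* made up 0.986% there against 23.9% in P1.

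**Figure D4:**
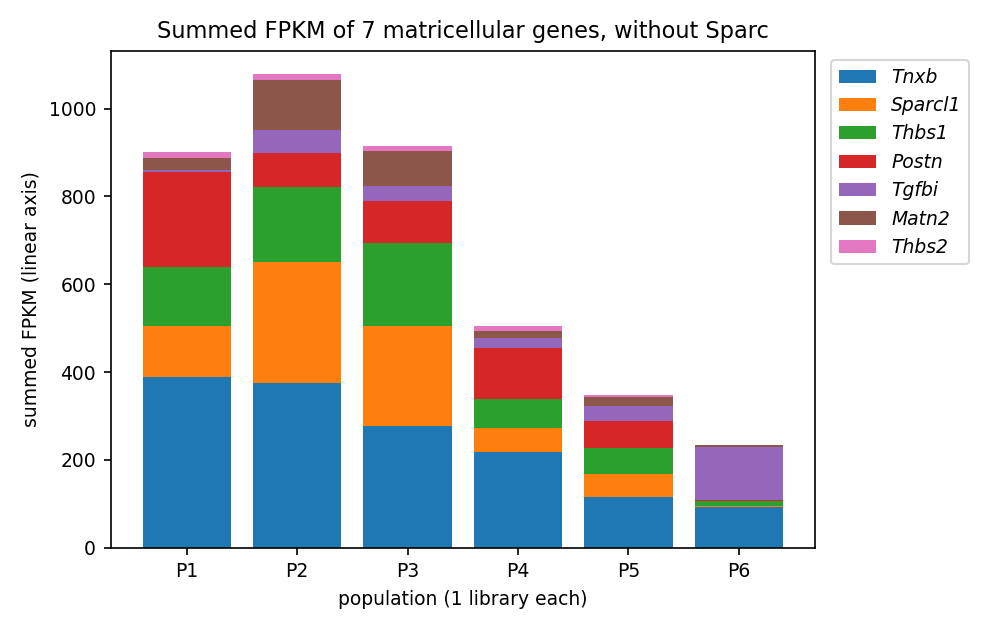
Summed FPKM (linear axis from 0) of 7 genes of the group in each population, stacked by gene, without *Sparc*, *Tnc* and *Spp1*. The bars are highest in P1 to P3, and *Tgfbi* takes the largest part of the bar in P6.

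A wider set of 26 related genes was read from the same libraries, of which 15 stayed below 1 FPKM in every library. These included *Tnn*, *Tnr*, *Comp*, *Thbs4*, *Ibsp* and *Dspp*. *Fstl1*, a SPARC-family glycoprotein, was the most abundant in P1 to P5, and its FPKM from P1 to P6 was 871, 525, 370, 462, 224 and 165. *Cyr61*, a CCN protein that binds integrins, had 116 FPKM in P5 and 430 in P6, its extremes. *Smoc2* and *Thbs3* had their lowest levels among P1 to P5 in P5, at 17.6 and 17.3 FPKM, against 155 and 67.9 in P2. *Nov*, another CCN protein, had 80.5, 45.6, 12.1, 64.2, 12.3 and 3.47 FPKM from P1 to P6, so that it stood higher at intermediate than at low ALDH activity with and without CD105. *Spock3* and *Matn4* marked P6, with 54.7 and 18.0 FPKM there against at most 1.65 and 3.38 in the other populations.

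Of the related genes, 9 were tested in P1 against P2, with 0 higher and 1 (*Wisp2*) lower, where 1.05% and 4.5% of all genes tested were. In P2 against P3, 9 were tested, with 1 (*Nov*) higher and 0 lower, against 1.16% and 2.75% of all genes. In P4 against P5, 10 were tested and 8 were higher, namely *Spock3*, *Smoc1*, *Smoc2*, *Fstl1*, *Thbs3*, *Matn4*, *Ctgf* and *Nov*, and 0 were lower, against 4.17% and 1.57% of all genes. In P2 against P4, 11 were tested, with 4 higher (*Spock2*, *Smoc2*, *Ctgf* and *Wisp2*) and 2 lower (*Spock3* and *Matn4*), against 5.1% and 7.94% of all genes. In P3 against P5, 10 were tested, with 7 higher and 1 (*Matn4*) lower, against 7.55% and 6.5% of all genes. The acinar sum in P4 was 927 FPKM against 115 in P5, and its part in the ratios of P4 to P5 was not tested.

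Among 15 receptors of these proteins, 12 reached 1 FPKM. None was called in P1 against P2, in P2 against P3 or in P4 against P5. Over all genes tested, 1.05%, 1.16% and 4.17% were called higher there and 4.5%, 2.75% and 1.57% lower. By CD105, 1 receptor was called higher and 3 lower in P2 against P4, against 5.1% and 7.94% of all genes. In P3 against P5, 2 were higher and 3 lower, against 7.55% and 6.5% of all genes. Integrin αv, the common partner of the periostin, TGFBI and osteopontin receptors, had 23.2 FPKM of *Itgav* in P1 and 59.4 in P5, and its partner chain *Itgb5* went the other way, with 78.1 FPKM in P1 and 21.8 in P5. *Itgb3* had 18.8 FPKM in P4 and 18.6 in P5 against 4.26 in P2 and 4.04 in P3, and it was called lower in CD105+ cells at both ALDH levels. So were *Cd44*, the hyaluronan and osteopontin receptor (15.7 and 31.3 FPKM in P2 and P3, 73.8 and 106 in P4 and P5), and *Sdc4*, a heparan sulfate proteoglycan (116 and 231 FPKM against 314 and 529). *Cd36*, a thrombospondin receptor, was higher with CD105, at 3.69 and 3.87 FPKM against 1.39 and 1.25. *Itgb5* was called higher with CD105 only in P3 against P5 (2.22 times). *Itga5* and *Itga9* were called lower in P6, where 3.43% of all genes tested were. *Cd47* had 70.0 to 132 FPKM and *Itgb1* 154 to 213 FPKM, and neither was called in any comparison.

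Of 7 partners in the matrix, *Lox*, the collagen cross-linking enzyme, was higher with CD105 at both ALDH levels. It had 274 and 218 FPKM in P2 and P3 against 109 and 66.4 in P4 and P5. In these comparisons 5.1% and 7.55% of all genes tested were called higher. *Bmp1*, the protease that activates it, had 92.0 FPKM in P6 and 186 in P1 and was not called. *Tgfb1* varied little, from 5.98 to 7.58 FPKM. *Tgfb2* was lower in P1 (7.47 FPKM) than in P2 (15.2), where 4.5% of all genes tested were called lower. *Tgfb3* was lower in P3 (29.0) than in P5 (61.5), where 6.5% were. *Fn1*, at 187 to 1516 FPKM in the other populations, was listed at 0 in P1, which can be a failed estimate, so the call of *Fn1* for P1 against P2 is not used.

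The genes most like each member were found by the root mean square difference of log2(FPKM + 1) over the 6 populations, after the mean of each gene was removed, among 6068 genes with a mean of at least 10 FPKM. This is a description over 6 libraries. For *Postn* they were *Il6* (0.47), *Phlda1* (0.51) and *Pdgfra* (0.55), which was a looser match than for most others. *Pdgfra* encodes CD140a, the marker by which P6 was sorted as low. Its FPKM was 117 to 154 in P1 to P5 and 5.36 in P6. *Tgfbi* was nearest to *Snora41* (0.30), a small nucleolar RNA shorter than the assumed fragment, *Col4a6* (0.55) and *Ptger3* (0.55). *Sparcl1* was nearest to *Cxcl12* (0.20), *Avpr1a* (0.41) and *Ccl19* (0.41), and *Cxcl12* had 366, 551, 597, 144, 117 and 6.36 FPKM from P1 to P6. *Matn2* was nearest to *Fmo2* (0.27), *Cntfr* (0.27) and *Kcne4* (0.37). For *Thbs1* they were *Plac8*, *Ggt5* and *Ebf3* (0.19 to 0.21), and genes near *Thbs2* included *Adamts12* (0.20) and *Fscn1* (0.21). *Tnxb* was nearest to *Timp1*, *Itgb5* and *Eln* (0.06 to 0.09), and *Sparc* to *Prdx4*, *Pmp22* and *Rps12* (0.05 to 0.06). Within the group, *Thbs1* and *Thbs2* were nearest to each other's pattern (0.47), *Sparc* and *Tnxb* likewise (0.44), and *Tgfbi* had no close member (1.61 to *Sparc*).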

How the data were processed

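6 stromal populations of mouse omentum were sorted and sequenced as single-end reads of 76 nt (NEBNext Ultra libraries). The authors deposited FPKM per gene symbol, and their processing notes list TopHat2 2.0.7, Cufflinks 2.1.1 and mm10. Annotation, filters and pooling of mice are not given in the sources used here. Rows sharing a symbol (495 repeats) were summed, and values were not rescaled. The genes and lists were chosen with earlier results of these data known. Similar genes were the 3 nearest for each member with at least 10 FPKM (1 of them is not reported here), and related genes were named where called or at 10 FPKM.

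Depth was estimated from single-transcript genes in GENCODE M21 (GRCm38, the build of the files), whose low values step by the worth of 1 read for an assumed fragment of 200 nt. Whole numbers of reads (tolerance 0.05) came out for 53.9% to 59.4% of the values up to 10 reads, where chance gives 10%, so reads are estimates and no count test was run. Intervals are exact binomial at 95%, for counting error only. Scripts were tested on simulated data. Software was scipy 1.17.1, matplotlib 3.10.9, numpy 2.4.6 and pandas 2.3.3 under Python 3.11.15.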

Additional observations from a re-analysis of the deposited data

Results flagged for a closer look

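Some genes moved in opposite directions under the same contrast, with both counting intervals leaving out a ratio of 1. With 1 library a population, these differences were not tested. For intermediate over low ALDH activity, the ratio with CD105 (P2 over P3) and without it (P4 over P5) was 0.815 and 1.82 for *Postn*, 1.48 and 0.706 for *Tgfbi*, 0.896 and 1.12 for *Thbs1*, and 1.41 and 0.810 for *Matn2*. For CD105+ over CD105- cells, *Postn* had a ratio of 0.675 at intermediate ALDH activity (P2 over P4) and 1.51 at low ALDH activity (P3 over P5). As deposited, *Postn* thus had its higher level without CD105 at intermediate ALDH activity and with CD105 at low ALDH activity. After division by *Gapdh*, its log2 ratio for P2 against P4 was -0.0946 instead of -0.567, and for P3 against P5 it was 1.14. The share of all genes with opposite directions was not computed.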

How the results depend on the processing

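Alternatives were scalings, minimum FPKM, threshold, an added 1 FPKM and the highest of repeated rows. Of the counts of called genes, 60 stayed within 1.5 times and 10 moved. For P4 against P5, 1 gene (*Tnxb*) was called after division by *Gapdh* and 3 at a threshold of 1.5 times, instead of 0. *Gapdh* gave 7 genes for P3 against P5 and 6 for P2 against P4, instead of 4, and for P2 against P3, no minimum gave 1 (*Spp1*) instead of 0. At 3 times, 2 genes were called for P1 against P2, 2 for P2 against P4 and 0 above the next highest population. This last count was 2 at 1.5 times, with the median of ratios (*Postn* and *Tgfbi*) and with no minimum (*Tgfbi* and *Spp1*), instead of 1. Of the log2 ratios, 124 stayed within their counting interval and 116 moved outside it, so the intervals do not cover the choice of processing. For *Postn* in P1 against P2, 1.47 became 1.30 with quantile normalization and 1.56 with the median of ratios. Among all log2 ratios, 3 changed sign, none of a called gene.

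Division by *Gapdh*, whose FPKM ran from 214 to 326, moved the median log2 ratio of all genes from -0.08 to 0.39 for P2 against P4 and from -0.09 to 0.45 for P3 against P5. It also turned the share of called genes that were higher from 39.1% to 67.6% and from 53.7% to 80.9%. With quantile normalization the share was 31.0% for P1 against P2 instead of 18.9%. Genes of the group called lower remained 0 in both comparisons of CD105 under every scaling, but with no minimum FPKM 1 gene, *Spp1*, was lower with CD105 in each, by 4.57 times (1.37 to 26.7) for P2 against P4 and 12.8 times (2.09 to 581) for P3 against P5. The cause was not tested. No paired analysis was possible because there was a single library for each population. Depth limits *Tnc* and *Spp1*, whose reads were few.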
